A study of Homo sapiens with 6 samples.

Results

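Activins, inhibins, follistatins, bone morphogenetic proteins (BMPs) and the TGF-betas are secreted regulators of granulosa cells, the somatic cells that surround the oocyte. Activins are dimers of beta subunits encoded by INHBA and INHBB, and an inhibin joins a beta subunit to the alpha subunit encoded by INHA. An inhibin takes up activin receptors without starting their signal, whereas follistatin and FSTL3 bind activins outside the cell and gremlin 1 binds BMPs. Activins and TGF-betas signal through SMAD2 and SMAD3, and BMPs through SMAD1, SMAD5 and SMAD9. The 10 genes described here, taken by symbol from the 60671 genes of each deposited table, were the subunit genes INHA, INHBA and INHBB, the ligand genes BMP2, BMP4, TGFB1 and TGFB2 and the antagonist genes FST, FSTL3 and GREM1. No measured value entered this selection by symbol, although earlier results of these data were known when it was made.

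The question was whether their transcripts differ when FOXL2, a forkhead transcription factor of the ovary, is depleted. The cells were KGN, an established human granulosa tumour cell line whose parental cells carry a mutant FOXL2 allele. Those used here had been edited to carry wild-type FOXL2 only (FOXL2 WT/WT in the labels), so both conditions share this edit, and the labels do not say how many clones it came from. Cells kept in 10% fetal bovine serum received 30 pmol of siRNAs against FOXL2 (3 libraries) or of a scrambled control siRNA (3 libraries), and RNA was taken 30 h after transfection and sequenced as stranded mRNA libraries. Each FOXL2 siRNA library had its own pool of 3 siRNAs, and the pools overlap in their members, so the 3 libraries repeat the depletion and not the siRNA mixture. The sources used here do not say whether the libraries of a condition came from separate cultures on separate days, and p-values measure the spread between these libraries only.

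The libraries held between 23843192 and 28791954 estimated read counts. FOXL2 siRNA replicate 2 stood apart from the other 5 libraries: on the first principal component, which held 29.6% of the variance, it lay at 47.33, and the others lay between -19.47 and -3.222. Results are therefore also given without it. By the study's methods, each FOXL2 pool lacked an siRNA that both other pools held. Leaving out a FOXL2 siRNA library thus also changes the siRNAs represented, and these cannot be told apart. The siRNA target had 248, 238 and 290 counts in control replicates 1 to 3 and 72, 80 and 68 in FOXL2 siRNA replicates 1 to 3. Its level in CPM, the count scaled to library size by TMM, was 10.1 ± 0.596 (SD, n = 3) in control cells and 2.77 ± 0.487 after FOXL2 siRNA, which is 27.3% of the control mean. The log2 fold change was -1.88 (SE 0.142, edgeR quasi-likelihood test, adjusted p = 0.00267), and without FOXL2 siRNA replicate 2 it was -2.03.

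Of 11 granulosa cell markers, 5 had a mean TPM (a level scaled to library and transcript length) of at least 1, namely NR5A1, AMH, FOXL2, INHBB and HSD17B1. FSHR, the receptor of follicle-stimulating hormone, and WT1 had no read in any library, and CYP19A1, the aromatase gene, AMHR2 and GATA4 had at most 3 counts in each. The cells thus carried NR5A1 and AMH transcripts and lacked several of the defining transcripts of follicular granulosa cells. The summed TPM of the 11 markers, led by NR5A1, was 74.5, 79.8 and 76.6 in control replicates 1 to 3 and 68.6, 79.9 and 76.6 in FOXL2 siRNA replicates 1 to 3. Among markers of other cells, 1 of 3 leukocyte markers, CD68, accounted for most of a sum of 76.9, 72.9 and 86.0 TPM in control cells and 52.8, 61.8 and 70.2 after FOXL2 siRNA, groups that did not overlap, while PTPRC, the pan-leukocyte marker, had a mean of 0.727 TPM and CD3E had no read. The epithelial sum lay between 78.2 and 90.8 TPM and was almost all KRT8, with EPCAM at 0.19 and CDH1 at 0.148. The theca sum lay between 14.5 and 17.9 TPM and was almost all STAR, with INSL3 and LHCGR at 0. The oocyte and endothelial sums were at most 0.46 and 0.97 TPM, led by ZP3 and PECAM1. Their part in the results below was not tested.

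The proximal promoters of these genes are shown because they are where FOXL2 or the SMAD proteins downstream of the ligands could bind close to the start. The study cites earlier work in which FOXL2 peaks tended to lie in introns or between genes. Regions further from the start were not searched here. The windows (RefSeq, GRCh38.p14, from 250 bases before to 50 after an annotated start) covered 9 of the 10 genes with 12 windows, and BMP2 had none. The forkhead core TAAACA, read on both strands, was in 0 of the 12 windows and in 12.3% of the 35116 windows of all genes. This holds for these 6 letters only: the shorter core AAACA, which TAAACA contains, was in 5 of the 12 windows (those of INHA, INHBA, TGFB1 and 2 of BMP4) and in 44.4% of all windows, and other variants were not searched. The SMAD-binding letters CAGACA, also read on both strands, were in 5 of the 12 windows and in 16.9% of all windows, and the longer palindrome GTCTAGAC was in 0 of the 12 and in 0.202% of all. CAGACA, GTCTAGAC and TAAACA do not contain each other. The 4 matches that lay before the start were those of TGFB2, INHA, BMP4 and GREM1, and that of INHBA lay after its start. A match describes the letters only. Capitals mark CAGACA or, in BMP4, its reverse complement, and each line reads 5′ to 3′ on the strand of the gene.
TGFB2 (chr1:218345243-218345328, plus strand, match 53 bases before the start): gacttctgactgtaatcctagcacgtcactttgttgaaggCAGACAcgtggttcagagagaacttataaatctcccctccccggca
INHA (chr2:219572122-219572207, plus strand, match 148 bases before the start): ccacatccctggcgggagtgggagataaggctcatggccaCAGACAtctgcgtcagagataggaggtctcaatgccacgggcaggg
BMP4 (chr14:53953397-53953482, minus strand, match 47 bases before the start): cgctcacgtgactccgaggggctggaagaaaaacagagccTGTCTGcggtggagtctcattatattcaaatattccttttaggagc
GREM1 (chr15:32717768-32717853, plus strand, match 196 bases before the start): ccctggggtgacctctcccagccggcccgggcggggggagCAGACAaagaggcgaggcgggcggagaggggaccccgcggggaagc

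The 80 bases before the start of the genes for the activin beta subunits are shown beside the ratio of their transcripts. That ratio, described further on without a test, did not overlap between the conditions, and neither gene was called. A link between these sequences and the ratio was not tested. They hold neither TAAACA nor the SMAD-binding letters, and capitals mark AAACA or its reverse complement. Over its 300-base window INHBB had a GC content of 88.7%, above that of 99.98% of all windows, and INHBA had 43.3%, above that of 17.44%.
INHBA (chr7:41703091-41703170, minus strand): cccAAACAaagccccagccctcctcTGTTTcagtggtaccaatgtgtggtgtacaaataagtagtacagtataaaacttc
INHBB (chr2:120346056-120346135, plus strand): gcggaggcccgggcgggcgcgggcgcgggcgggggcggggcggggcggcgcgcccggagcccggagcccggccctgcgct

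Transcripts of TGFB1, BMP4 and both follistatin genes were more abundant than those of the activin subunits. By mean TPM over the 6 libraries, which allows for transcript length, TGFB1 was highest at 135.3, followed by FSTL3 at 96.9, BMP4 at 78.1, FST at 69.4, INHBA at 31.1, TGFB2 at 10.5, INHBB at 7.61, GREM1 at 1.01 and INHA at 0.18, and BMP2 was at 0. TGFB1 lay above 92.8% of the genes tested, INHBA above 70.4% and GREM1 above 12.3%. The ranges over the 6 libraries were separate between most neighbours in this order. They overlapped between FSTL3 and BMP4, between BMP4 and FST and between TGFB2 and INHBB. Within a library FSTL3 was above BMP4 in all 6, BMP4 was above FST in 5 of 6, and TGFB2 was above INHBB in all 6. TGFB1 alone accounted for between 49.3% and 54.1% of the summed TPM of the 7 ligand and subunit genes, and BMP4 for between 27.8% and 32.7%.

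With FOXL2 at 27.3% of its control level, no change of these genes was detectable at the threshold used. Of the 10 genes, 8 passed the filter on low counts, and 0 of the 8 were called at an adjusted p below 0.05 (edgeR quasi-likelihood test, Benjamini-Hochberg over all 15663 genes tested), beside 0.255% of all genes tested (40 genes, 17 higher and 23 lower). At an unadjusted p below 0.05 there was 1 of 8, INHBB, where the share over all genes was 13.5%. DESeq2 called 0 of the 7 of these genes to which it gave an adjusted p (not GREM1), beside 2.88% of the 12086 genes to which it gave an adjusted p. Without FOXL2 siRNA replicate 2, edgeR again called 0 of them, beside 3.61% of the genes tested. The CPM values of the conditions did not overlap for INHBB and GREM1, both higher after FOXL2 siRNA, which is 2 of 8 beside 9.97% of all genes in that direction and 20.5% in either. The median log2 fold change of the 8 was -0.05, and that of all genes tested was 0.01. The 95% intervals of the 8 log2 fold changes reached from -0.45, for INHBA, to 0.83, for GREM1, so a change as large as that of FOXL2 lay outside every interval. Of the 8 intervals, 7 spanned 0, and that of INHBB, which is not adjusted for the number of genes, began at 0.01.

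**Figure D1:**
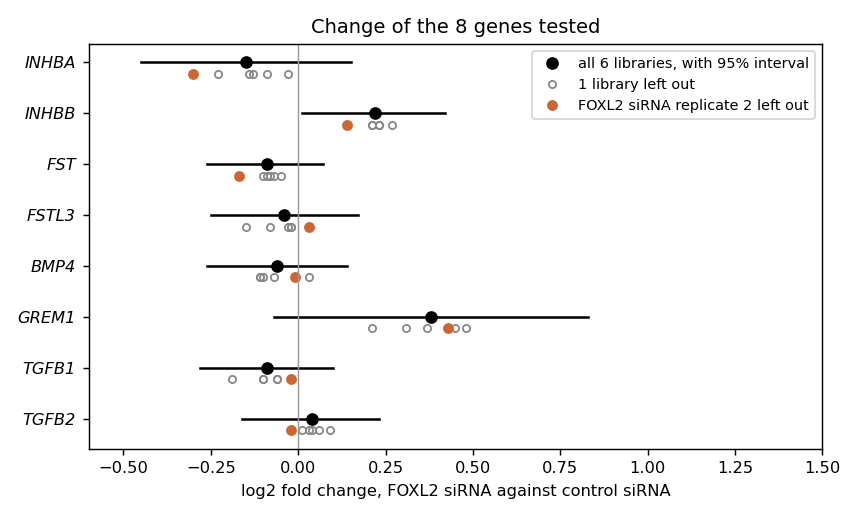
Log2 fold change (FOXL2 siRNA against control siRNA) of the 8 genes tested, with all 6 libraries and its 95% interval (black), with each library left out in turn (open grey) and without FOXL2 siRNA replicate 2 (orange). INHBB (0.22) and GREM1 (0.38) have the largest positive values, the interval of every gene but INHBB spans 0, and no adjusted p was below 0.05.

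Transcripts of the inhibin alpha subunit were close to the limit of detection. INHA had 5, 1 and 4 counts in control replicates 1 to 3 and 3, 3 and 4 in FOXL2 siRNA replicates 1 to 3. The exact Poisson 95% interval of the highest count, 5, is 1.62 to 11.7 and that of the lowest, 1, is 0.0253 to 5.57, and these intervals cover counting error only. The conditions overlapped, and no difference was detectable at this depth. Its TPM ratio to INHBA plus INHBB lay between 0.00289 and 0.00604, so the alpha subunit transcript was far scarcer than those of the beta subunits in every library.

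INHBA, which encodes the subunit of activin A, was the main subunit gene in these cells. It had 79.7, 84.6 and 68.9 CPM in control replicates 1 to 3 and 57.4, 83.8 and 68.9 in FOXL2 siRNA replicates 1 to 3. FOXL2 siRNA replicate 1 was the lowest library and replicate 2 lay among the controls, so the conditions overlapped. INHBA had a log2 fold change of -0.15 (SE 0.132, 95% interval -0.45 to 0.15, edgeR adjusted p = 0.649). It was -0.30 without FOXL2 siRNA replicate 2 (edgeR adjusted p = 0.156) and -0.03 without FOXL2 siRNA replicate 1 (adjusted p = 0.946). With all 6 libraries and effective-length offsets it was -0.28 (edgeR adjusted p = 0.345, DESeq2 adjusted p = 0.203), so its size depended both on single libraries and on the length used. INHBA-AS1, which overlaps INHBA on the other strand, had between 17 and 28 counts against at least 1568 for INHBA.

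INHBB, which encodes the subunit of activin B, had 14.1, 14.5 and 14.3 CPM in control replicates 1 to 3 and 15.4, 18.2 and 16.3 in FOXL2 siRNA replicates 1 to 3. All 3 FOXL2 siRNA libraries lay above all 3 controls, and replicate 2 was the highest. Its log2 fold change was 0.22, or 1.16-fold (SE 0.0912, 95% interval 0.01 to 0.42), with p = 0.0425 and an adjusted p of 0.352 in edgeR and an exact permutation p of 0.1, the smallest that 3 libraries against 3 can give. Without FOXL2 siRNA replicate 2 the value was 0.14, and the adjusted p lay between 0.31 and 0.666 over all alternatives. Over log2 CPM of the 6 libraries, the genes with the pattern most like that of INHBB were ALG10 (Pearson r 0.9952), ENTPD4 (r 0.9949) and SLC38A9 (r 0.99), and 77 of the genes tested had r above 0.95, which is a description of 6 points that share libraries.

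The balance of the beta subunit transcripts did not overlap between the conditions, whereas neither subunit was called. Of the 4 ratios computed, 2 did not overlap, and INHBB alone already did not. Of single genes tested, 20.5% did not overlap in CPM, while no such share was computed for ratios or in TPM. The ratio of INHBA to INHBB in TPM was 5.00, 5.31 and 4.35 in control replicates 1 to 3 and 3.18, 3.21 and 3.84 in FOXL2 siRNA replicates 1 to 3, so every FOXL2 siRNA library lay below every control. The means were 4.89 ± 0.49 and 3.41 ± 0.374 (SD, n = 3), a quotient of 0.698, which is given as a description without a test. Leaving out a library gave quotients between 0.654 and 0.729. With CPM divided by a single length per gene in place of TPM, the ratios were 4.81, 4.96 and 4.11 against 3.18, 3.92 and 3.60, again without overlap, and the quotient was 0.77. The 2 scales differ most in FOXL2 siRNA replicate 2, where the effective length that RSEM estimated for INHBA, the transcript length from which a read can start, was 129.1% of the control mean. That of INHBB was close to 100% in every library.

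In TPM, transcripts of FST and FSTL3 were each more abundant than those of either activin subunit; CPM, which does not allow for length, is used below to compare conditions. FST had 65.1, 64.5 and 66.0 CPM in control replicates 1 to 3 and 57.6, 67.1 and 59.0 in FOXL2 siRNA replicates 1 to 3. FOXL2 siRNA replicates 1 and 3 lay below the narrow range of the controls and replicate 2 above it. The log2 fold change was -0.09 (SE 0.0733, 95% interval -0.26 to 0.07, edgeR adjusted p = 0.621), and -0.17 without FOXL2 siRNA replicate 2 (edgeR adjusted p = 0.167). FSTL3, a secreted relative of follistatin, had 132.6, 146.4 and 144.0 CPM in control replicates 1 to 3 and 133.0, 122.0 and 155.8 in FOXL2 siRNA replicates 1 to 3, with the lowest and the highest library both in the FOXL2 siRNA condition. Its log2 fold change was -0.04 (95% interval -0.25 to 0.17, edgeR adjusted p = 0.882) and 0.03 without FOXL2 siRNA replicate 2. The ratio of FST plus FSTL3 to INHBA plus INHBB in TPM was 4.04, 3.86 and 4.57 in control replicates 1 to 3 and 4.91, 3.93 and 4.71 in FOXL2 siRNA replicates 1 to 3. These values overlapped, with means of 4.16 ± 0.369 and 4.52 ± 0.516 (SD, n = 3).

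BMP2 had 0 counts in all 6 libraries, which by a limit of 3 counts per library allows a level of up to between 0.104 and 0.124 CPM and covers counting error only. BMP4 was by far the most abundant of the BMP ligand genes listed. It had 91.3, 77.0 and 75.6 CPM in control replicates 1 to 3 and 79.0, 72.2 and 82.6 in FOXL2 siRNA replicates 1 to 3. The conditions overlapped, and control replicate 1 was the highest library. Between conditions BMP4 had a log2 fold change of -0.06 (SE 0.0887, 95% interval -0.26 to 0.14, edgeR adjusted p = 0.811), 0.03 without control replicate 1 and -0.01 without FOXL2 siRNA replicate 2.

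GREM1, the gremlin gene, was rare. It had 51, 45 and 45 counts in control replicates 1 to 3 and 80, 53 and 60 in FOXL2 siRNA replicates 1 to 3, or 2.03, 1.84 and 1.68 CPM against 2.93, 2.19 and 2.08. FOXL2 siRNA replicate 1 was the highest, and replicate 3, at 2.08 CPM, was barely above control replicate 1. GREM1 had a log2 fold change of 0.38 (SE 0.199, 95% interval -0.07 to 0.83, edgeR adjusted p = 0.439), 0.43 without FOXL2 siRNA replicate 2 (edgeR adjusted p = 0.365) and between 0.21 (without FOXL2 siRNA replicate 1, adjusted p = 0.725) and 0.48 (without replicate 3, adjusted p = 0.341) over all libraries left out in turn. With all libraries it was 0.27 by limma on log2(TPM + 1), and 0.55 by edgeR with effective-length offsets (adjusted p = 0.37). The ratio of GREM1 to BMP2 plus BMP4 in TPM was 0.0103, 0.0106 and 0.00987 in control replicates 1 to 3 and 0.0191, 0.0134 and 0.0144 in FOXL2 siRNA replicates 1 to 3. These groups did not overlap, and the quotient of their means was 1.52, given without a test. Since BMP2 was at 0, this is the ratio of GREM1 to BMP4 transcripts, and GREM1 transcripts were far scarcer in every library. The effective length of GREM1 in FOXL2 siRNA replicate 3 was 79.2% of the control mean, and this raises its TPM relative to its CPM.

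TGFB1 had 228.2, 217.3 and 218.0 CPM in control replicates 1 to 3 and 200.7, 188.6 and 235.9 in FOXL2 siRNA replicates 1 to 3. The FOXL2 siRNA libraries held both the lowest and the highest value, and the log2 fold change was -0.09 (SE 0.0839, 95% interval -0.28 to 0.10, edgeR adjusted p = 0.689). It was -0.02 without FOXL2 siRNA replicate 2, -0.19 without FOXL2 siRNA replicate 3 (edgeR adjusted p = 0.247) and -0.03 with effective-length offsets in edgeR. TMEM91, which overlaps the TGFB1 locus, had between 45 and 74 counts against at least 4564 for TGFB1. TGFB2 had 19.3, 20.2 and 20.6 CPM in control replicates 1 to 3 and 20.8, 22.1 and 18.9 in FOXL2 siRNA replicates 1 to 3. The conditions overlapped, with a log2 fold change of 0.04 (95% interval -0.16 to 0.23, edgeR adjusted p = 0.886), and the sign turned when effective lengths entered the fit. TGFB2-AS1 had between 3 and 13 counts and TGFB2-OT1 had 0. Whether the counting used the strand of the reads is not given in the sources used here.

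Effective length depends on which transcripts of a gene the reads were assigned to, and it varied for some of these genes. In FOXL2 siRNA replicate 2 it was 129.1% of the control mean for INHBA, 121.0% for FST and 131.0% for TGFB2, where the median over all genes tested was 100.5%. The controls of TGFB2 themselves spread from 84.0% to 118.9%, each against the mean of the other controls. FSTL3, BMP4 and TGFB1 stayed between 95.3% and 103.9% in every library. These lengths were not tested, and the library concerned is the same that stood apart on the first principal component.

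Around these ligands, 7 lists of the pathway held 110 genes, of which 75 were tested and 1 was called, beside 0.255% of all genes tested. At that share a list of this size holds few calls or none, so a count of 0 in the lists that follow says nothing particular to a list. The gene called was TGFBR2, which encodes the type II receptor of the TGF-betas. It had 285.0, 274.7 and 277.1 CPM in control replicates 1 to 3 and 175.8, 205.1 and 188.1 in FOXL2 siRNA replicates 1 to 3. All 3 FOXL2 siRNA libraries were far below the controls, and the spread within a condition was small, with means of 278.9 ± 5.38 and 189.7 ± 14.7 CPM (SD, n = 3). The log2 fold change was -0.56 (SE 0.0679, edgeR adjusted p = 0.0234), and it lay between -0.62 and -0.51 over all alternatives. The call was lost in 7 of 17 alternatives, among them the removal of any control library (edgeR adjusted p between 0.135 and 0.224) or of FOXL2 siRNA replicate 3 (0.0767) and limma on TPM values (0.108 and 0.123).

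Of the other 14 receptor and coreceptor genes tested, 0 were called. Among all 15, the 2 conditions were apart in CPM for 4 that were higher after FOXL2 siRNA (ACVR2A, ACVR2B, TGFBR3 and RGMB) and for 2 that were lower (TGFBR2 and BMPR1B), beside 20.5% of all genes in either direction. BMPR1B, a type I receptor of BMPs, had 3.01 ± 0.087 CPM in control cells and 2.45 ± 0.272 after FOXL2 siRNA (SD, n = 3), with a log2 fold change of -0.30 (edgeR adjusted p = 0.425). ACVR2A and ACVR2B, the type II receptors of activins, had log2 fold changes of 0.34 and 0.29 (edgeR adjusted p = 0.317 and 0.329), and the CPM of each was higher in all 3 FOXL2 siRNA libraries than in all 3 controls. In TPM this held for ACVR2B and RGMB, while ACVR2A and TGFBR3 overlapped. TGFBR3, the betaglycan gene, whose product strengthens the binding of inhibin to activin receptors, had 0.30 (edgeR adjusted p = 0.385). These 3 genes, and BMPR1B, RGMB, TGFBR1, SMAD3, PMEPA1 and ID4 in what follows, were singled out after their values were seen. ENG, a coreceptor and the most abundant receptor gene of the list by TPM, had a log2 fold change of -0.13 (edgeR adjusted p = 0.516). TGFBR1, the type I partner of TGFBR2, differed between FOXL2 siRNA libraries, with 35.3, 86.0 and 45.0 CPM in replicates 1 to 3 against 65.1, 64.3 and 50.4 in controls. It was not called with all 6 libraries (log2 fold change -0.12, edgeR adjusted p = 0.891) and was called without FOXL2 siRNA replicate 2 (-0.58, edgeR adjusted p = 0.0433). RGMB, a BMP coreceptor, had 0.28 (edgeR adjusted p = 0.328).

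Of 25 other ligands of the family, 7 were tested and 0 were called, so most of these ligands had few or no reads. GDF11, a ligand of activin receptors, had 34.0, 32.0 and 38.3 CPM in control replicates 1 to 3 and 23.0, 27.2 and 28.5 in FOXL2 siRNA replicates 1 to 3, without overlap (log2 fold change -0.41, SE 0.103, edgeR adjusted p = 0.159). DESeq2 called it (adjusted p = 0.0278), though not with effective-length offsets. AMH, the anti-Müllerian hormone gene and the most abundant of these ligands by TPM, had a log2 fold change of -0.19 (edgeR adjusted p = 0.519), and its receptor gene AMHR2 had at most 1 count in a library. Of 20 other extracellular antagonists, 13 were tested and 0 were called. FSTL1, a follistatin-like protein and the most abundant of them, had 1674.2 TPM and a log2 fold change of -0.01 (edgeR adjusted p = 0.949). BMPER, a secreted BMP-binding protein, had the smallest p of the list, with 0.25 (edgeR adjusted p = 0.49).

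Among 18 genes for processing and latency, which encode the proteases that mature these ligands and the proteins that store or release latent TGF-beta, 15 were tested and 0 were called. THBS1, which encodes thrombospondin 1, an activator of latent TGF-beta, had 2052.5, 2128.8 and 2289.3 CPM in control replicates 1 to 3 and 2593.5, 2536.5 and 2629.2 in FOXL2 siRNA replicates 1 to 3. The groups were well apart (log2 fold change 0.26, SE 0.0624), and the edgeR adjusted p was 0.131. DESeq2 called it (adjusted p = 0.0109), as did edgeR without FOXL2 siRNA replicate 2 (adjusted p = 0.0325).

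All 8 SMAD genes, the signal transducers, were tested and 0 were called, beside 0.255% of all genes, with log2 fold changes between -0.15 and 0.16. SMAD7, the inhibitory SMAD that activin and TGF-beta induce, had the smallest p (0.16, edgeR adjusted p = 0.349), and its values overlapped in TPM but not in CPM. SMAD2, the most abundant by TPM, had 0.09 (edgeR adjusted p = 0.66). SMAD3 was called without FOXL2 siRNA replicate 2 (-0.35, edgeR adjusted p = 0.0465) and not with all libraries (-0.15, edgeR adjusted p = 0.685).

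All 12 listed target genes of activin and TGF-beta were tested and 0 were called, with a median log2 fold change of 0.14 beside 0.01 for all genes tested. In CPM the FOXL2 siRNA libraries were all higher for 6 of the 12, beside 9.97% of all genes tested. They were all lower for 0 of the 12, beside 1654 of the 15663 genes tested. In TPM the FOXL2 siRNA libraries were all higher for 4 of the 12 and all lower for 0, without a share over all genes. NUAK1, a kinase gene, had 27.3, 28.1 and 28.8 CPM in control replicates 1 to 3 and 34.1, 35.8 and 34.9 in FOXL2 siRNA replicates 1 to 3 (log2 fold change 0.32, SE 0.0675, edgeR adjusted p = 0.108). It was called by DESeq2 (adjusted p = 0.0444) and by edgeR without FOXL2 siRNA replicate 2 (0.0465). The values were not in 1 direction throughout, since PMEPA1, an established target, had -0.34 (edgeR adjusted p = 0.411). COL1A1, the collagen I gene and the most abundant of the list, had -0.02 (edgeR adjusted p = 0.951). LTBP2 and SMAD7 stand in other lists as well.

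Of 10 target genes of BMPs, 9 were tested and 0 were called, with a median log2 fold change of -0.10. ATOH8, a transcription factor gene, had 24.9, 23.8 and 21.0 CPM in control replicates 1 to 3 and 14.1, 17.9 and 21.4 in FOXL2 siRNA replicates 1 to 3, with FOXL2 siRNA replicate 3 inside the range of the controls (-0.38, edgeR adjusted p = 0.312), whereas its TPM values did not overlap. In CPM the FOXL2 siRNA libraries were all lower for 1 of the 9 genes tested and all higher for 0. Of all 15663 genes tested, 1654 were all lower and 1561 all higher in CPM. In TPM the FOXL2 siRNA libraries were all lower for 2 of the 9 and all higher for 0. The share over all genes is given for CPM only. SMAD6 and BAMBI, inhibitors of the pathway, stand in other lists as well. ID3, the most abundant of the list by TPM and a direct BMP target, had -0.10 (edgeR adjusted p = 0.81). ID4 had 12.5, 11.9 and 11.6 CPM in control replicates 1 to 3 and 6.88, 12.6 and 7.04 in FOXL2 siRNA replicates 1 to 3, so replicate 2 alone lay at the level of the controls (-0.45, edgeR adjusted p = 0.389). Without it ID4 was called (-0.79, edgeR adjusted p = 0.00533).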

How the data were processed

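The 6 libraries (3 FOXL2 siRNA, 3 control siRNA) were grouped by the labels. Per the labels and the study's methods, the authors sequenced single 75-base reads, aligned them with STAR 2.7.6a, checked them with Picard 2.8.1 and estimated expression with RSEM 1.3.1. The submitters' processing notes name the build GRCm38, a mouse assembly, while the identifiers are human, and the annotation release is not given in the sources used here. The authors deposited, for each of 60671 genes, an expected count (an estimated count, not normalized), TPM values scaled to library and transcript length, and an effective length.

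Expected counts were rounded, filtered with filterByExpr and normalized by TMM (CPM in the text). Conditions were compared in edgeR 4.0.16 (quasi-likelihood test, R 4.3.3), with Benjamini-Hochberg adjustment over 15663 genes and a threshold of 0.05. The test was tested on simulated data. Alternatives were DESeq2 1.42.0, limma 3.58.1 on log2(TPM + 1) and log2(TPM + 0.1) and as voom, effective-length offsets, other size factors and filters, a replicate block, an older estimate of the quasi-dispersion (chosen after seeing the data) and each library left out. Symbols were matched for 60401 identifiers. The genes and lists were chosen with earlier results of these data known. The text names FOXL2, the 10 genes, and of each list the genes called, the gene with the smallest p and the most abundant gene, together with a few genes, CCN2 among them, singled out after their values were seen. Promoters are from RefSeq (GRCh38.p14).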

Additional observations from a re-analysis of the deposited data

How the results depend on the processing

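None of the 8 genes tested was called under any of the 17 alternatives that gave it an adjusted p (DESeq2 gave none for GREM1), BMP2 was never tested, and FOXL2 stayed below the threshold with a negative log2 fold change in all of them. The number of genes called over all tested was 40, and DESeq2 gave 348, or 346 once effective lengths entered it as offsets. It was 13 with limma on log2(TPM + 1) and 13 on log2(TPM + 0.1), 70 with no filter on low counts and 64 with a mean of at least 50 counts. It lay between 2 (without control replicate 1 or 3) and 579 (without FOXL2 siRNA replicate 2) when a library was left out. Genes called in the pathway lists numbered 1, and 4 with DESeq2, 4 with DESeq2 and offsets, 0 with limma on either TPM scale and between 0 and 6 with a library left out. DESeq2 called NUAK1, GDF11, THBS1 and TGFBR2, and with offsets NUAK1, CCN2 (0.28, adjusted p = 0.0185), THBS1 and TGFBR2, so GDF11 was not called there. A block on the replicate number gave 11 genes over all tested and 0 in the pathway lists (TGFBR2, edgeR adjusted p = 0.0892). Same-numbered libraries did not deviate together (r -0.0233, 0.0659 and 0.0421). With so few libraries this cannot show whether the numbers pair the samples, which the sources used here do not say. The sign of the log2 fold change turned for FSTL3 without FOXL2 siRNA replicate 2 (0.03, and -0.15 to 0.03 with any library left out) and for BMP4 without control replicate 1 (0.03, and -0.11 to 0.03). For TGFB2 it was -0.03 with DESeq2 and offsets and -0.02 with edgeR and offsets, with limma on both TPM scales and without FOXL2 siRNA replicate 2 (-0.02 to 0.09 with any library left out). The cause was not tested. The depth, at 45 to 80 counts for GREM1 and at most 5 for INHA, limits what can be said of both.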
